A study of Mus musculus with 6 samples.

Results

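The 10 genes described here are lens genes measured in RNA of dissected mouse retina: Cryaa, an alpha crystallin; Cryba1, Cryba4, Crybb1 and Crybb3, beta crystallins; Crygb and Crygn, gamma crystallins; and Lim2, Mip and Gja3, which encode proteins of the lens fibre cell membrane. They were taken by symbol from a deposited table of 22731 gene symbols, all 10 were present, and each had a mean of at least 1 RPKM (reads scaled to gene length and library depth, the unit the authors deposited). They were chosen by their RPKM levels in these 6 libraries, with the comparison of cKO and control known, so their values and the differences between groups are given as a description, without a test. The study set retinas of mice that lose Dicer1 in rods against retinas of control littermates, with 3 RNA-seq libraries in each group and RNA pooled from 4 mice in each library. Animals of both groups were 4 weeks old, on a mixed C57BL/6J and SJL background, and carried Dicer fl/fl alleles. The conditional knockouts (cKO replicates 2, 3 and 4) were iCre75+, with Cre recombinase driven in rods, and the controls (replicates 1, 2 and 3) were iCre75-. Retinas were collected between 8 and 10 in the morning. Nothing in the labels says whether any mouse gave RNA to more than 1 library, and the spread between libraries is that between pools of mice.

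The lens is built of fibre cells that fill with crystallins, lose their organelles and remain for life. Alpha crystallins are relatives of the small heat shock proteins and act as chaperones, whereas beta and gamma crystallins are packed structural proteins that give the lens its refractive index. Fibre cell membranes hold the water channel made by Mip, the intrinsic membrane protein made by Lim2, and gap junction channels made by Gja3. The lens lies against the vitreous in front of the retina, and some crystallins have also been described in retinal neurons and glia. In a library from whole tissue, fewer cells of a type and less RNA per cell cannot be told apart, and RNA from lens tissue cannot be told apart from crystallin RNA made in retinal cells.

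In GRCm38 the genes lie on chromosomes 17 (Cryaa), 11 (Cryba1), 5 (Cryba4, Crybb1, Crybb3 and Crygn), 1 (Crygb), 7 (Lim2), 10 (Mip) and 14 (Gja3). Read numbers worked back from the steps in the RPKM values gave between 12336426 and 32934561 reads in genes per library, at the smallest depth that makes the reads whole. Rod genes, the check on the labelled tissue, summed to between 8982 and 10721 RPKM over 5 markers (Gnat1, Pde6b, Nrl, Nr2e3 and Sag). Dicer1, whose gene-level value also counts exons outside the floxed part and other retinal cells, was at 8.52 ± 0.222 RPKM in control pools against 7.66 ± 0.525 RPKM in cKO retina pools (SD, n = 3 each; limma adjusted p = 0.931).

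Lens genes were abundant in some retina libraries and scarce in others, and the difference ran within both groups. The 10 genes together held 0.387% of the reads in genes of control replicate 1 (95% Wilson interval 0.385% to 0.389%) and 0.284% (0.283% to 0.286%) of those of cKO replicate 3. They held 0.155% (0.154% to 0.157%) in cKO replicate 2 and 0.136% (0.134% to 0.137%) in control replicate 3. In control replicate 2 the share was 0.0427% (0.0420% to 0.0434%), and in cKO replicate 4 it was 0.0223% (0.0215% to 0.0232%). Intervals cover counting error only, and they are far narrower than the distance between libraries of 1 group. Each group held 1 library with little lens RNA and 1 with much.

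Cryaa, which encodes the alpha A subunit of the main lens chaperone, was the most abundant of the 10. It was at 639.6, 1171 and 79.9 RPKM in cKO replicates 2, 3 and 4 and at 1488, 150.03 and 524 RPKM in control replicates 1, 2 and 3, resting on between 1422 and 60273 reads. Control replicate 1 and cKO replicate 3 were the high libraries, cKO replicate 4 and control replicate 2 the low ones, and the groups overlapped. The group means were 630.2 ± 546 RPKM in cKO and 721 ± 691 RPKM in controls (SD, n = 3 each).

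The beta crystallins, which associate with each other into dimers and larger oligomers, repeated the same order of high and low libraries. Cryba1, whose transcript gives the A3 and A1 proteins, was at 163, 333 and 31.3 RPKM in cKO and at 559.7, 47.1 and 166 RPKM in the controls. Crybb3, a basic beta crystallin, was at 191, 393 and 36.1 RPKM in cKO and at 458, 61.03 and 203 RPKM in control retinas. In both genes the lowest value was in cKO replicate 4 and the highest in control replicate 1. Cryba4 and Crybb1 are neighbours on chromosome 5, on opposite strands and 3.30 kb apart in GRCm38. Cryba4, an acidic beta crystallin, was at 104, 219 and 20.3 RPKM in cKO and at 322, 38.1 and 113 RPKM in controls. Crybb1, a basic one, was at 70.4, 142 and 12.9 RPKM in cKO and at 206, 26.3 and 75.5 RPKM in controls. The pair had the same order of libraries, and the groups overlapped for each of the 4 beta crystallins.

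The gamma crystallins on the list differed from each other in how far they ranged. Crygb, a monomeric crystallin of the fibre cells encoded with its close relatives on chromosome 1, was at 26.6, 45.7 and 12.2 RPKM in cKO and at 58.2, 20.6 and 49.4 RPKM in controls. Its highest value was 4.75 times its lowest, and control replicate 3 lay above cKO replicate 3, unlike in the other 9 genes. Crygn, whose gene lies apart on chromosome 5 and has features of both the beta and the gamma family, was at 7.63, 14.3 and 1.20 RPKM in cKO and at 15.7, 1.74 and 6.90 RPKM in controls. Its highest value was 13.1 times its lowest, close to the range of the beta crystallins.

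The 3 membrane genes were, with Crygn, the least abundant and the 3 ranged the furthest of the 10. Lim2 was at 8.34, 13.4 and 0.687 RPKM in cKO and at 19.7, 2.07 and 6.16 RPKM in control retinas. Mip, which encodes the water channel that makes up much of the fibre cell membrane protein, was at 9.88, 12.7 and 0.586 RPKM in cKO and at 26.1, 1.45 and 4.69 RPKM in controls. Gja3, a connexin gene, was at 3.58, 5.50 and 0.141 RPKM in cKO and at 5.06, 0.455 and 2.13 RPKM in controls. Gja3 was the 1 gene of the 10 whose highest value lay in cKO replicate 3 rather than control replicate 1. Its value in cKO replicate 4 rests on 3 reads at that depth, with an exact Poisson interval of 0.0290 to 0.411 RPKM (95%), and 4 of the 60 member values rest on fewer than 20 reads. The groups overlapped for all 3.

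**Figure D1:**
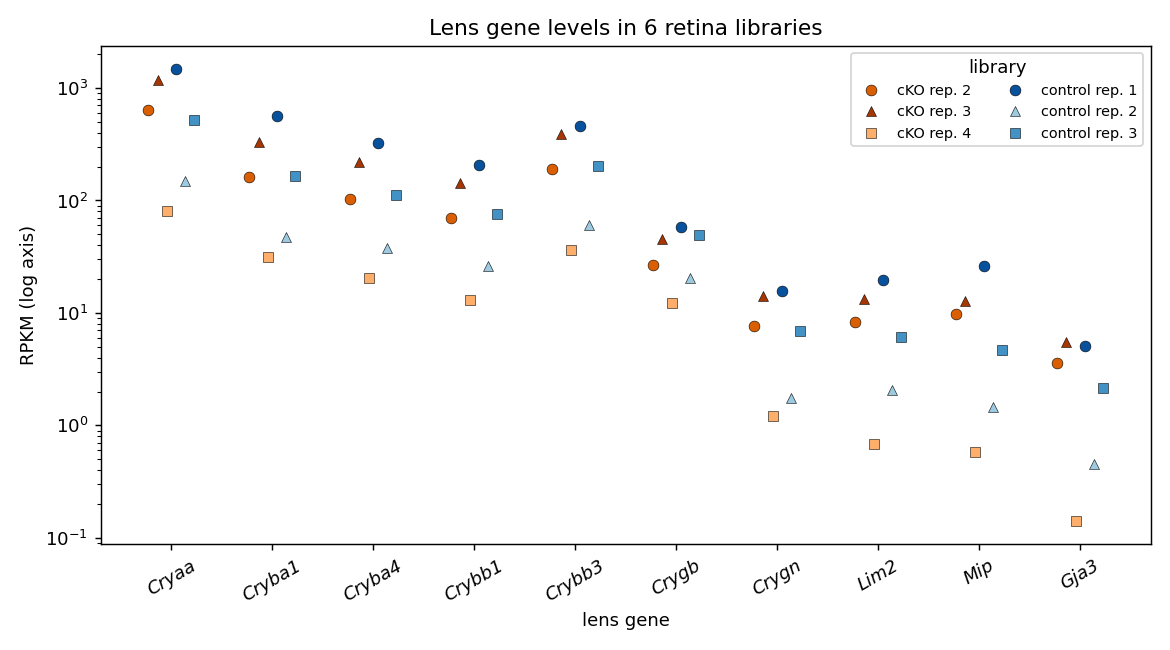
RPKM of the 10 lens genes on a log axis, with 1 point per library (orange shades for the 3 cKO libraries, blue shades for the 3 controls). In every gene cKO replicate 4 is lowest and control replicate 2 next, and the other 4 libraries lie above both.

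The order of the libraries was nearly the same in the 10 genes. cKO replicate 4 was lowest and control replicate 2 next lowest in 10 of 10, an order found in 239 of the 12599 genes tested. Control replicate 1 and cKO replicate 3 were the highest pair in 9 of 10, against 2.60% of all genes tested, the exception being Crygb. cKO replicate 2 lay above control replicate 3 in 5 of 10 (Cryaa, Crygn, Lim2, Mip and Gja3) and below it in the other 5, so these neighbours in the order were not separated. Depth did not follow this order: control replicate 2, with 30112573 reads in genes, was deeper than control replicate 1, with 27204444, and cKO replicate 4 had the fewest, 12336426. The steps fix a library's depth only up to a whole multiple, so this last rank rests on taking the smallest depth.

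Promoter sequences of 5 of these genes are shown because the levels of the 10 genes went together across libraries. Each is the stretch of 150 bases that ends just before the transcription start site in the RefSeq table (GRCm38.p6), written 5′ to 3′ on the strand of the gene. Capitals mark TGCTGA, the core of the recognition element of Maf factors (known activators of crystallin genes), and the TATA-like hexamers TATAAA and TATATA, each searched on both strands. Of the 10 genes all are in that table, Gja3 with 2 start sites.
Cryaa (chr17:31677781-31677930, plus strand): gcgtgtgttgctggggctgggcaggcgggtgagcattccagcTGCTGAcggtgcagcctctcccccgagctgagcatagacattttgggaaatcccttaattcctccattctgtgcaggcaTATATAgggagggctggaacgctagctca
Cryba1 (chr11:77725294-77725443, minus strand): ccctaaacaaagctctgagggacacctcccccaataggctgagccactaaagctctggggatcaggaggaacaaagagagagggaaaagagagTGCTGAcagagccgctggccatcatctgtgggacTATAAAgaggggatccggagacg
Crybb1 (chr5:112255670-112255819, plus strand): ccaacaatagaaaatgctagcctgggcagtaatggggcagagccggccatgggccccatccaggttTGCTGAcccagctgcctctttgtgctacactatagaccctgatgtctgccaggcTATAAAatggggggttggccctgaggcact
Crygb (chr1:65082291-65082440, minus strand): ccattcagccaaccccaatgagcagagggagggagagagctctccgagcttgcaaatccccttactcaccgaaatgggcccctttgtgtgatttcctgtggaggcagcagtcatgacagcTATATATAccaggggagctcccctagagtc
Mip (chr10:128225660-128225809, plus strand): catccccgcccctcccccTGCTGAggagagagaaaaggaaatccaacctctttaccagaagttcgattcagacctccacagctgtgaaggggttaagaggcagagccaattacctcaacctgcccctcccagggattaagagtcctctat
TGCTGA was found within the 250 bases before the start in 8 of the 10 genes and in 16.1% of the 32851 promoters of the table. Of the 9 alpha, beta and gamma crystallins outside the 10, 8 are in the table, and 4 of these had TGCTGA. Among the 10, the genes with no match were Crygb and Gja3. In Cryaa the match began 108 bases before the start, in Crybb1 84 and in Cryba1 57. TATAAA or TATATA was found in 6 of the 10 genes, in 6 of the 8 other crystallins and in 15.6% of all promoters. In Cryaa, Cryba1, Crybb1, Crygb and Crygn it began between 23 and 30 bases before the start, and in Gja3 163 bases before it. In Crygb 2 matches of TATATA overlap. A match describes letters only and shows no binding, and its part in the shared order of libraries was not tested.

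The lens genes outside the 10 were looked up in lists of other crystallins, lens fibre genes and lens transcription factors. All 9 other crystallins were measured. Crybb2, the most abundant of them and a partner of other beta crystallins in oligomers, was at 403, 757 and 70.5 RPKM in cKO and at 916, 117 and 450.4 RPKM in controls. Cryab, the second alpha crystallin, which many tissues make, was at 84.8, 146 and 35.7 RPKM in cKO and at 222, 37.1 and 94.3 RPKM in controls. The same pair of libraries, cKO replicate 4 and control replicate 2, was lowest for these genes and for all 9. Crygs and Cryba2 were at 120 ± 115 and 123 ± 117 RPKM in controls and at 75.04 ± 56.3 and 87.4 ± 74.5 RPKM in cKO (SD, n = 3 each). Crygc, Crygd and Cryge were at 105 ± 59.2, 61.4 ± 29.6 and 18.2 ± 3.79 RPKM in controls and at 71.6 ± 41.7, 42.3 ± 24.6 and 16.1 ± 9.85 RPKM in cKO. Cryga and Crygf were at 11.8 ± 3.82 and 5.77 ± 1.39 RPKM in controls and at 10.3 ± 7.88 and 4.56 ± 2.90 RPKM in cKO. The gamma crystallins A to F are near-identical in part, and how the authors counted reads with several matches is not given in the sources used here, so the split between them is uncertain.

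Gamma crystallins A to F ranged less across the libraries than the other crystallins did. Their highest value was between 4.29 and 5.38 times the lowest in the 6 genes, against 12.7 to 17.9 times in the 6 beta crystallins and 28.7 to 44.5 times in Lim2, Mip and Gja3. Crygs, the gamma crystallin on chromosome 16, ranged 15.2 times, and Cryab 6.22 times. Relative to Cryaa in the same library, Crygb stood at 0.0391 in control replicate 1 and 0.0390 in cKO replicate 3, and at 0.138 and 0.153 in control replicate 2 and cKO replicate 4, the libraries with the least Cryaa. The ratio of each beta crystallin to Cryaa moved by 1.43 to 1.59 times over the same libraries. Gamma crystallins A to F thus stood high beside Cryaa where lens genes were low, in a cKO and in a control library alike. They were not alone in this. Cryab stood at 0.149 of Cryaa in control replicate 1 and at 0.248 and 0.447 in control replicate 2 and cKO replicate 4. The ratio to Cryaa moved by 3.35 times in the lens fibre gene Bfsp1, 5.07 in Bfsp2 and 5.64 in Lgsn, beside 3.82 to 6.48 in gamma crystallins A to F. Over all tested genes above 0 in every library, the median ratio of highest to lowest value was 1.30, and 64 of 12582 genes reached the 4.29 of Cryge. These ranges are of levels chosen with the data in view and carry no test.

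**Figure D2:**
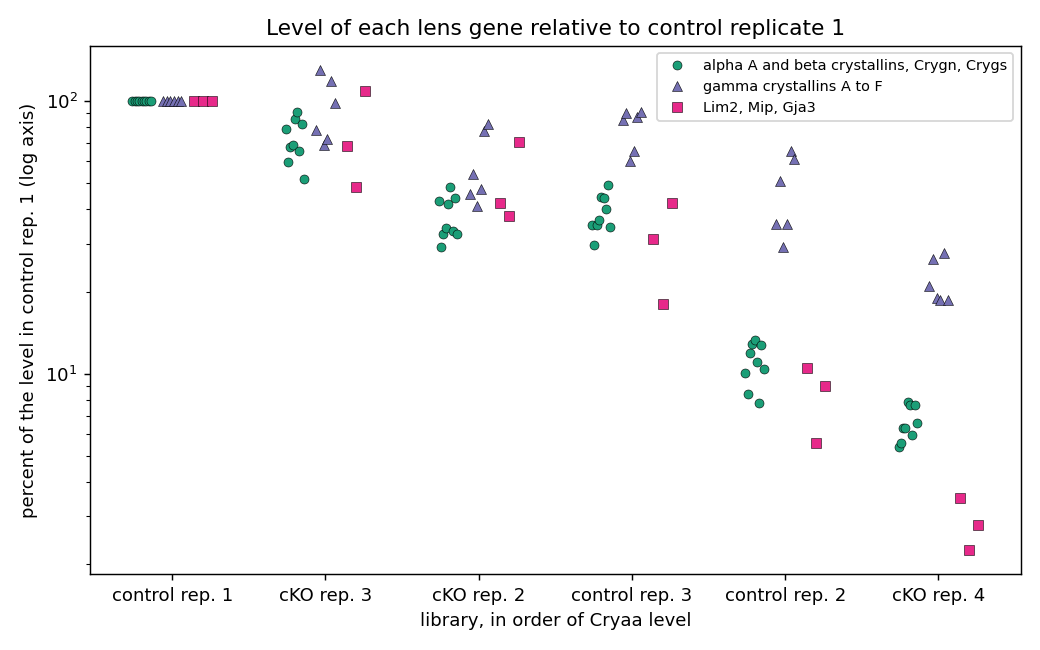
Level of Cryaa, the beta crystallins, Crygn, Crygs, gamma crystallins A to F, Lim2, Mip and Gja3, each as a percent of its own level in control replicate 1. The axis is a log axis and the libraries are ordered by Cryaa. Cryab and the other lens fibre genes are not plotted. In cKO replicate 4 Cryab stood at 16.1%, Bfsp1 at 18.0%, Bfsp2 at 27.2%, Lgsn at 21.1% and Grifin at 7.01%. In cKO replicate 4 the gamma crystallins A to F (triangles) lie between 18.6% and 27.7%, the beta crystallins (circles, with Cryaa, Crygn and Crygs) no higher than 7.88%, and Lim2, Mip and Gja3 (squares) between 2.25% and 3.48%.

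Among the other lens fibre genes, Grifin, a lens galectin relative, followed the 10 genes. It was at 7.19, 13.04 and 1.84 RPKM in cKO and at 26.2, 2.19 and 7.42 RPKM in control retinas. It was lowest in cKO replicate 4 and next lowest in control replicate 2. The beaded filament genes Bfsp1 and Bfsp2, which build the fibre cell cytoskeleton, were at 4.64 ± 2.34 and 5.03 ± 2.77 RPKM in controls and at 3.46 ± 2.28 and 4.80 ± 2.33 RPKM in cKO. Lgsn was at 2.63 ± 0.737 RPKM in control pools against 2.18 ± 1.32 RPKM in cKO. Bfsp1, Bfsp2 and Lgsn were each lowest in cKO replicate 4 and next lowest in control replicate 2. Their highest value was 5.56, 3.67 and 4.74 times the lowest. Lenep, at 18.9 ± 3.26 and 18.1 ± 2.92 RPKM, and Aqp5, which encodes another water channel, at 3.24 ± 0.476 and 2.92 ± 0.504 RPKM, did not take this order: their highest value was 1.44 and 1.46 times the lowest. Lctl, Birc7 and Dnase2b had a mean under 1 RPKM and were not tested. Lctl was at 0.488, 0.707 and 0 RPKM in cKO and at 0.936, 0.295 and 0.546 RPKM in controls, with the low pair of the crystallins. Birc7 was at 0.312, 0.379 and 0.0561 RPKM in cKO and at 0.666, 0.414 and 0.566 RPKM in controls, on between 1 and 27 reads. It was lowest in cKO replicate 4, but control replicate 2 lay above cKO replicates 2 and 3. Dnase2b had at most 3 reads in a library.

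Of the transcription factors of the lens list, Foxe3, a factor of the lens epithelium, took the order of Gja3, with the low pair of the crystallins. It was at 4.94, 7.18 and 0 RPKM in cKO and at 5.83, 0.503 and 3.47 RPKM in controls, so that it was listed at 0 in cKO replicate 4. Pitx3, a factor of lens development, had a mean under 1 RPKM and was not tested, but its 6 values stood in the order of those of Cryaa. It was at 0.592, 0.769 and 0.0480 RPKM in cKO and at 1.07, 0.0931 and 0.430 RPKM in controls, on between 1 and 51 reads. Sox1, also under that mean, was highest in control replicate 1, at 0.324 RPKM, and in cKO replicate 3, at 0.235 RPKM, and lowest in control replicate 2 and cKO replicate 4. The factors that the retina also uses ranged less, with a highest value between 1.20 (Six3) and 1.61 times (Maf) the lowest. Pax6 was at 57.8 ± 4.97 RPKM in control pools against 59.02 ± 8.36 RPKM in cKO, Prox1 at 21.9 ± 1.16 and 21.1 ± 2.09 RPKM, and Six3 at 34.1 ± 0.695 and 37.1 ± 2.95 RPKM. Sox2 was at 9.82 ± 1.84 and 9.92 ± 2.00 RPKM and Hsf4 at 4.82 ± 0.310 and 5.08 ± 0.321 RPKM. Maf, an activator of crystallin genes, was at 2.96 ± 0.478 and 3.08 ± 0.713 RPKM. Sox2 and Maf, at 1.52 and 1.61 times, ranged more than the median of 1.30 over all genes. Prox1, Sox2 and Maf were lowest in cKO replicate 4. Pax6, Six3 and Hsf4 were highest in that library, at 68.6, 39.9 and 5.45 RPKM.

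**Figure D3:**
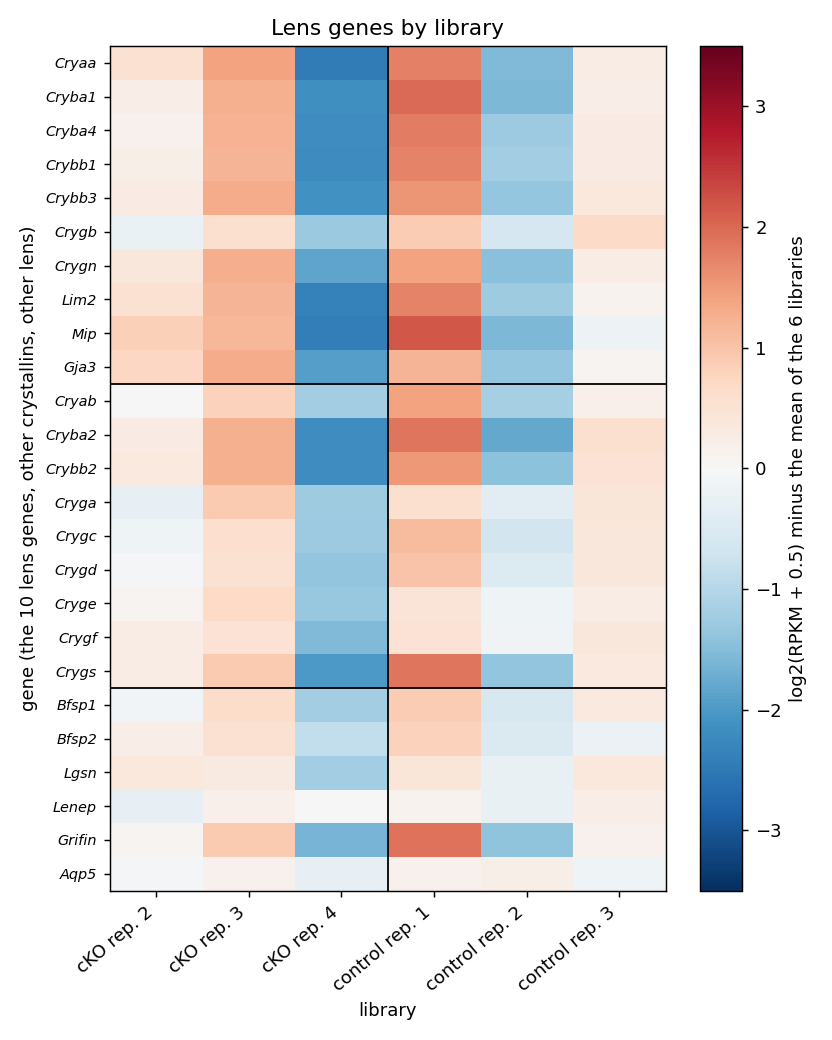
log2(RPKM + 0.5) of each tested lens gene minus its mean over the 6 libraries, for the 10 genes, the other crystallins and the other lens fibre genes (blocks from top to bottom). cKO replicate 4 and control replicate 2 are blue and control replicate 1 and cKO replicate 3 red in nearly every row, with Lenep and Aqp5 close to white.

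The difference in lens RNA between cKO and control retinas was fitted with limma on log2(RPKM + 0.5). For the 10 genes the fit gives a description only. They had log2 fold changes (cKO against control) from −0.65 ± 0.509 (SE) in Crygb to 0.055 ± 0.886 in Gja3, with a median of −0.38, beside a median of −0.0050 over the 12599 genes tested. The mean log2 value was lower in cKO in 9 of the 10 and in 6507 of all genes tested. The 3 cKO values overlapped the 3 control values in all 10, and 11.7% of the genes tested did not overlap. The genes were picked with this contrast known, so nothing is read from this count. The standard errors ran from 0.509 in Crygb to 1.13 in Mip on the log2 scale.

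The direction of these differences rested on single libraries. Without cKO replicate 4, 9 of the 10 genes were higher on average in cKO, with a median log2 fold change of 0.64. Without control replicate 1, 9 of 10 were higher too, with a median of 0.39. Without control replicate 2 and without cKO replicate 3, all 10 were lower, with medians of −1.14 and −1.10. For Cryaa the log2 fold change was −0.32 ± 1.08 (SE) with all 6 libraries and ran from −1.17 without control replicate 2 to 0.82 without cKO replicate 4. Crygb stayed below 0 in all 6 such fits, between −1.10 and −0.16, and in Gja3 the value was above 0 in 3 of 6.

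**Figure D4:**
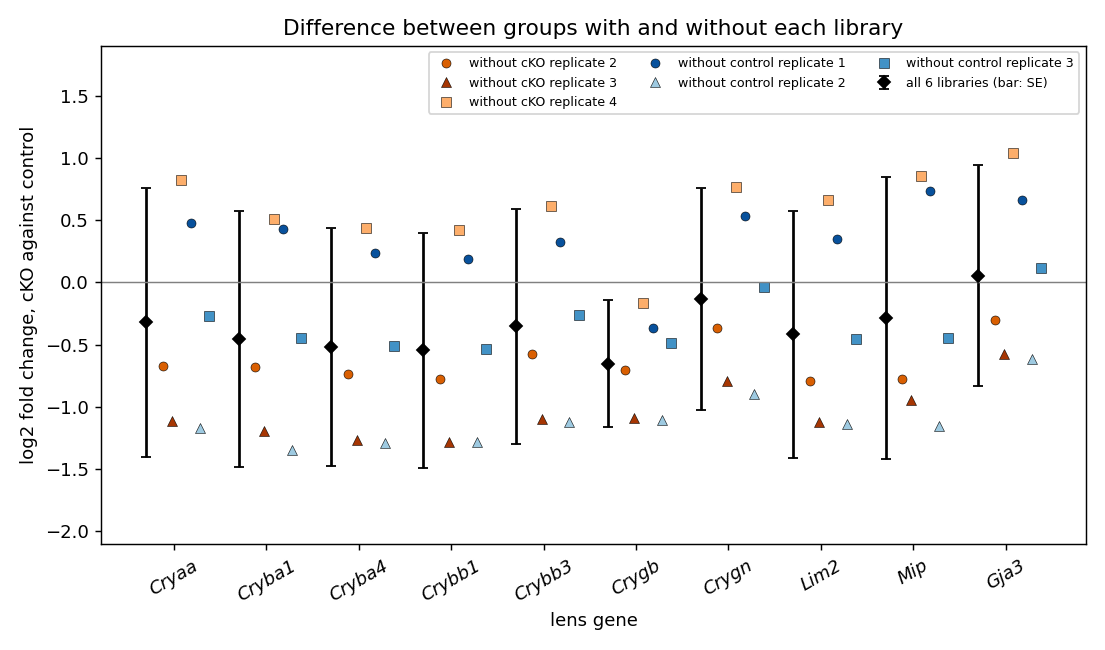
log2 fold change of cKO against control for each of the 10 genes with all 6 libraries (black diamonds, bars are SE) and with 1 library left out (coloured points). The points without cKO replicate 4 and without control replicate 1 lie above 0 in 9 of 10 genes, and those without cKO replicate 3 and without control replicate 2 lie below 0 in all 10.

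Of the 27 genes on the 3 lists of other lens genes, 22 were tested. By limma 0 were called higher and 0 lower at an adjusted p of 0.05 (lowest adjusted p = 0.972), beside 0.00794% of all genes tested, and 0 had an unadjusted p under 0.05, beside 5.71%. Their median log2 fold change was −0.31, with 5 higher and 17 lower in cKO, and the groups overlapped in all 22. The other crystallins had a median of −0.42 (9 lower of 9), the lens fibre genes −0.24 (6 lower of 6) and the transcription factors 0.025 (5 higher of 7). These genes share the libraries and largely the order of the 10, so their signs are not independent of those above or of each other.

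The spread between libraries of 1 group, the SD left on the log2 scale after the group means, was far wider for lens genes than for most genes. It ran from 0.866 to 1.95 in the 10 genes, with a median of 1.63, beside a median of 0.128 over all genes tested. Of the 20 genes with the widest spread, 9 were among the 10 and 5 more were genes of the other lens lists (Foxe3, Cryba2, Crybb2, Crygs and Grifin). Xist, Eif2s3y, Ddx3y, Snord42a and Mir5109 were also among the 20. Crygb, the remaining gene of the 10, ranked 43. The median spread was 0.911 for the other crystallins, 0.702 for the lens fibre genes and 0.163 for the transcription factors.

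**Figure D5:**
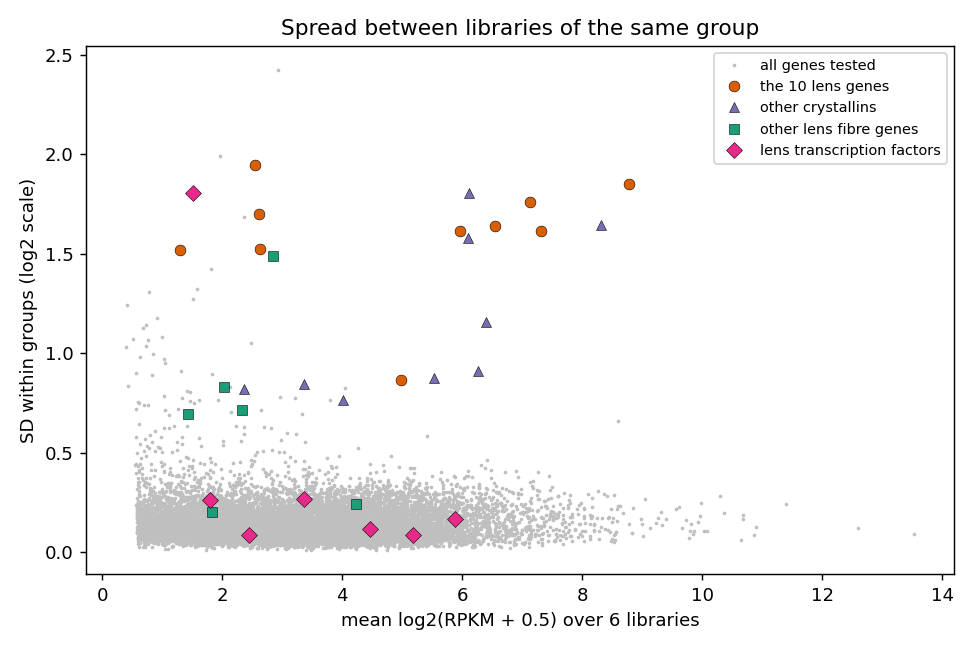
SD within groups against the mean level of each tested gene, both on the log2(RPKM + 0.5) scale, with all genes in grey. The 10 lens genes (orange) lie between 0.866 and 1.95, and the all-gene median is 0.128.

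Genes with the pattern most like that of the 10 were named by Pearson correlation, over the 6 libraries, with the mean of their log2 values, among the 12589 other genes tested. Among the 10 most alike were Crybb2 (r = 0.996), Crygs (0.992), Cryba2 (0.991), Zbtb8b (0.979), Grifin (0.978), Trp53i11 (0.978), Cryab (0.977), Nid1 (0.976) and Bfsp1 (0.973). Of these 6 are on the lens lists. All points share the same 6 libraries, and without the 2 libraries farthest from the median, cKO replicate 4 and control replicate 2, r ran from 0.798 in Nid1 to 0.979 in Crybb2. The likeness is of pattern and not of size: for each log2 unit of the lens mean Crybb2 moved by 1.03, Nid1, a basement membrane gene, by 0.455, Zbtb8b by 0.127 and Trp53i11 by 0.0585. Nid1 was at 3.38, 3.77 and 0.896 RPKM in cKO and at 3.76, 1.43 and 2.53 RPKM in controls.

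Markers of other tissues that a dissected retina can carry were summed in each library. The 10 pigment epithelium and pigment cell markers summed to 383, 351 and 311 RPKM in cKO replicates 2, 3 and 4 and to 347, 339 and 296 RPKM in control replicates 1, 2 and 3. Genes of that list took different orders, which the sum joins. The melanin and melanosome genes Dct, Tyr, Tyrp1 and Mlana were highest in control replicate 2 and cKO replicate 2. Rpe65, Rgr, Rdh5 and Lrat, genes of retinoid handling, were highest in cKO replicate 3 and lowest in control replicate 2. Ttr, which encodes transthyretin, was highest in control replicate 1, next in cKO replicate 3 and lowest in control replicate 2. These 5 genes thus shared a high and a low library with the lens genes but not the low cKO replicate 4. Their highest value was between 1.40 (Rdh5) and 1.61 times (Ttr) the lowest. Best1, with a mean under 1 RPKM, did not share them. It was highest in cKO replicate 4, at 0.825 RPKM, and lowest in cKO replicate 2, at 0.274 RPKM. The 7 markers of cornea, iris and ciliary epithelium, most of whose sum is Optc, summed to 55.7, 50.4 and 44.7 RPKM in cKO and to 68.8, 65.0 and 53.2 RPKM in controls. That sum was highest in control replicate 1 and lowest in cKO replicate 4, as for most of the lens genes, but next highest in control replicate 2, where they were low. The corneal keratin gene Krt12 was highest in cKO replicate 3, at 5.00 RPKM, and in control replicate 2, at 4.26 RPKM. Krt12, Krt5, Krt14 and Aldh3a1 were lowest in cKO replicate 4, at 1.14, 0.694, 0 and 0.612 RPKM. Each was highest or next highest in control replicate 2. Optc, Myoc and Kera were not lowest in cKO replicate 4. The corneal stroma gene Kera was at most 0.0429 RPKM. Of the 5 red blood cell markers, 4 haemoglobin genes were listed at 0 in every library. The other, Alas2, was at 1.09, 0.973 and 0.568 RPKM in cKO and at 0.983, 1.32 and 1.02 RPKM in controls. It rested on between 17 and 102 reads and was highest in control replicate 2 and lowest in cKO replicate 4. Why the haemoglobin genes were listed at 0 was not tested, so their zeros do not show that red cell RNA was absent. The 8 Müller glia markers, a retinal cell type in which crystallins have been described, summed to between 1994 and 2035 RPKM in cKO and between 2021 and 2254 RPKM in controls, a span of 1.13 times, beside 16.2 times for the 10 lens genes. The part that lens tissue, pigment epithelium, Müller glia or the steps of dissection have in the lens signal was not tested.

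Genes named crystallin that are not lens proteins, and the small heat shock genes, ranged less across the libraries than the 10 where tested. Of the 6 genes named crystallin that are not lens proteins in mouse, Crym, a thyroid hormone binding protein and ketimine reductase, was at 56.03 ± 9.57 RPKM in control pools against 55.6 ± 8.75 RPKM in cKO, and the quinone reductase gene Cryz at 8.29 ± 0.949 and 8.44 ± 0.217 RPKM. Their summed level spanned 1.35 times over the 6 libraries. Among the small heat shock genes, which share a domain with alpha crystallins, Hspb6 was at 91.0, 70.7 and 86.5 RPKM in control replicates 3, 2 and 1 and at 98.4, 113 and 123 RPKM in cKO replicates 2, 3 and 4. Every cKO library exceeded every control library for Hspb6, the 1 of 4 tested small heat shock genes without overlap. Of all genes tested, 11.7% did not overlap, in either direction. Hspb6 was not called (adjusted p = 0.848, limma). Hspb1 was at 1.72, 2.38 and 1.68 RPKM in cKO and at 2.38, 1.28 and 2.68 RPKM in controls. It was lowest in control replicate 2 and cKO replicate 4, the low pair of the crystallins, and its highest value was 2.09 times its lowest. Cryl1, named crystallin, had that low pair too, at 4.97 and 4.59 RPKM, with a highest value 1.47 times its lowest. The other tested genes of both kinds did not have this low pair. Neither Hspb6 nor Hspb1 had the full order of Cryaa.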

How the data were processed

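The authors deposited 1 table of RPKM values per gene and library. GSNAP, HTSeq and the mm9 build are named in the submitters' processing notes, without versions. Not given in the sources used here are the annotation, the gene length model, the reads counted in the depth and the treatment of reads with several matches. The labels' protocols describe poly(A) RNA, random priming and second strand synthesis with no strand mark, so overlapping and antisense genes cannot be told apart. Every value column was used.

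Values were used as deposited. Genes that averaged 1 RPKM or more over the 6 libraries, 12599 in number, were fitted with limma 3.58.1 (R 4.3.3, variance trend, no covariate) on log2(RPKM + 0.5), with two-sided p-values adjusted by Benjamini-Hochberg over all of them and a threshold of 0.05. On simulated data for this comparison (12599 genes) the fit called 100 of 100 genes changed by 1 log2 unit and 74 of 100 changed by 0.6. It called 19 of 12399 unchanged genes, and with no gene changed it called 3. The simulation gave every gene the same dispersion (negative binomial size 100), and its changed genes were taken from those with more reads. It did not model the SD within groups of the 10 lens genes, 0.866 to 1.95, so these rates do not hold for them. Fold changes on this scale understate those of low genes. Whole reads were inferred from the steps of the RPKM values and annotated lengths (GENCODE M21), and found for 19138 of 19140 genes above 0. In each library between 77.2% and 81.5% of the denominator fell in genes. The steps fix depth only up to a whole multiple, and the smallest was taken; for cKO replicate 4 the values cannot show whether reads were counted 2 times. Lengths and steps were read with Python 3.11.15 and scipy 1.17.1. Gene positions are from GENCODE M21 on GRCm38 and promoters from RefSeq (GRCm38.p6), a build other than the authors', and are used only for position.

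The genes described and the lists were chosen with earlier results of these data known. The rule for named genes takes all 10 lens genes, every gene of the 3 other lens lists with a mean of at least 1 RPKM, Dicer1, and the 10 genes most correlated with the 10. Some genes that the rule takes are not reported here and were left out of the lists. Genes named outside that rule were chosen after their values were seen. Alternatives were other pseudocounts and filters, equal medians, leaving out each library, a replicate block and, chosen after seeing the data, the block's libraries unblocked and a lens covariate.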

Additional observations from a re-analysis of the deposited data

How the results depend on the processing

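The count of genes called over the whole table was 1 in the fit as set out. It was 3 with no filter on low values, 2 with a mean of at least 5 RPKM, 3 with values scaled to equal medians, and 1 without each library in turn, with either other pseudocount and with the mean lens level as a covariate. The lens genes outside the 10 gave 0 calls in all of these. With a pseudocount of 0.1 all 10 lens genes were lower in cKO. With the 5 RPKM filter Gja3 was not in the fit.

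The groups share the replicate numbers 2 and 3 only. Deviations from the group means over tested genes correlated at 0.465 for the libraries numbered 2 and at −0.052 for those numbered 3. Over all pairs of a cKO and a control library the correlation ran from −0.551 to 0.476. The labels name no batch, and whether libraries with the same number were paired was not tested. With the replicate block on these 4 libraries, 192 of the 12599 genes tested were called, among them 7 of the 22 other lens genes. The same 4 libraries without the block gave 1 call in all and 0 among the 22. Lens levels in these 4 libraries, which leave out the lowest cKO and the highest control library, were higher in cKO for all 10, with a median log2 fold change of 1.41. The fit has 1 residual degree of freedom, and the cause of its calls was not tested. Of the 129 values of the 10 genes under alternatives, 111 moved by less than 1 SD within groups. The other 18 were those of 9 genes in the 2 fits on these 4 libraries.

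With 3 pools a group and this spread, a change in lens RNA smaller than the spread between libraries could not be seen. Depth limits only the lowest values of Lim2, Mip, Gja3 and Crygn in cKO replicate 4.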

Other observations

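Further down the same ranking of likeness stood genes that are on none of the lens lists, named here after their values were seen. Col4a1, a collagen of basement membranes such as the lens capsule and vessel walls, was at 12.4, 15.2 and 5.21 RPKM in cKO replicates 2, 3 and 4 and at 14.6, 6.18 and 8.40 RPKM in control replicates 1, 2 and 3 (r = 0.959 over 6 libraries, rank 20). Its low pair of libraries was that of the crystallins. Nupr1, a stress-induced nuclear protein gene, was at 17.2, 22.8 and 9.40 RPKM in cKO and at 31.4, 7.79 and 18.3 RPKM in controls (r = 0.954, rank 22). Cd24a, a surface glycoprotein gene, was at 6.87, 10.7 and 4.37 RPKM in cKO and at 15.8, 4.10 and 6.79 RPKM in controls (r = 0.934, rank 32). Both were highest in control replicate 1 and lowest in control replicate 2, unlike Cryaa, which was lowest in cKO replicate 4. Of the 40 genes most like the 10, 10 are on the lens lists. The pigment cell gene Dct was highest in control replicate 2, at 124 RPKM, and in cKO replicate 2, at 117 RPKM, and the pigment epithelium gene Rpe65 was highest in cKO replicate 3, at 12.5 RPKM.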
